A study of Mus musculus with 27 samples.

Results

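The enzymes of mitochondrial fatty acid oxidation were followed in NIH/3T3 cells, an established line of mouse fibroblasts, through 10 genes chosen by name: Cpt1a, Cpt2, Acadm, Acadl, Acadvl, Acads, Echs1, Hadh, Hadha and Etfdh. All probe sets of the array whose platform symbol is one of these names were taken, which gave 12 of 12488 probe sets. They stand for 9 of the 10 genes, and for 9 of the 8252 genes with a probe set of a single symbol. No probe set is named Hadha in the annotation used, and Hadha was not analysed here. The choice used names and not measured values, but it was made with earlier results of these data known. The 27 Affymetrix mouse U74v2 arrays came from cultures that all received a 2 h pulse of 15 µM forskolin, which activates adenylyl cyclase and so raises cyclic AMP, in serum-free medium. The cells were rinsed, kept without serum and harvested at 0 h, the end of the pulse, and every 6 h until 48 h, in 3 experiments, given as biological replicates. This gave 9 time points with 3 arrays each. Unpulsed cultures were not analysed here, so 0 h stands for cells just pulsed and not for untreated cells.

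Long-chain fatty acids enter the mitochondrion as carnitine esters, made by the Cpt1 enzymes of the outer membrane and turned back to acyl-CoA by Cpt2 on the inner membrane. Inside, each round of β-oxidation takes an acyl-CoA through a dehydrogenase, a hydratase, a hydroxyacyl-CoA dehydrogenase and a thiolase, and releases acetyl-CoA. The acyl-CoA dehydrogenases hand their electrons to the electron transfer flavoprotein and from there, through Etfdh, to ubiquinone. In liver, heart and muscle many of these genes are known targets of the fatty acid receptor PPARα and are raised in fasting.

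The promoters of the 4 genes with the largest changes in the first 6 h, Cpt1a, Acadm, Echs1 and Hadh, are printed here to show the sequence next to their start sites. They are from RefSeq on GRCm38.p6, 300 bases each, from 250 before to 50 after the start that the table gives, read 5′ to 3′ on the strand of the gene. Capitals mark AGGTCA or its reverse complement, the hexamer that nuclear receptors such as the PPARs and the ERRs bind in pairs or alone. The windows are Cpt1a chr19:3323051-3323350 on the plus strand, and, on the minus strand, Acadm chr3:153944594-153944893, Echs1 chr7:140116372-140116671 and Hadh chr3:131272052-131272351.
Cpt1a: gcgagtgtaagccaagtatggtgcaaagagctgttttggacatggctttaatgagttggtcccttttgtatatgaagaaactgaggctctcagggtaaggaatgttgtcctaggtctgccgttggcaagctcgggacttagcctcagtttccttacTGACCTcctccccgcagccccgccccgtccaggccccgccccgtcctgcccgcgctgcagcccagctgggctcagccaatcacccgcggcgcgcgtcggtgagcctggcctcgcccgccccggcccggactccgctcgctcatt
Acadm: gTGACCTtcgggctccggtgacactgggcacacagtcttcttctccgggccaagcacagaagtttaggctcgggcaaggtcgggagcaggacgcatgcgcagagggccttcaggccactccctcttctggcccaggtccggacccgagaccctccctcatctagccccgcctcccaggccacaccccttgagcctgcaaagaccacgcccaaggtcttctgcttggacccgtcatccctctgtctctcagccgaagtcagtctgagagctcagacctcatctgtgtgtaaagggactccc
Echs1: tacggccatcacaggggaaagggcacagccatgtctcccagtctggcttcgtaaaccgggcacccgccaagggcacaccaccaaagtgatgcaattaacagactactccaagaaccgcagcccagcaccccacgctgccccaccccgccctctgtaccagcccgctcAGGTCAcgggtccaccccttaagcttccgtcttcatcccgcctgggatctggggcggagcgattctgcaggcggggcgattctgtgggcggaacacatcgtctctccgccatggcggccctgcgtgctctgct
Hadh: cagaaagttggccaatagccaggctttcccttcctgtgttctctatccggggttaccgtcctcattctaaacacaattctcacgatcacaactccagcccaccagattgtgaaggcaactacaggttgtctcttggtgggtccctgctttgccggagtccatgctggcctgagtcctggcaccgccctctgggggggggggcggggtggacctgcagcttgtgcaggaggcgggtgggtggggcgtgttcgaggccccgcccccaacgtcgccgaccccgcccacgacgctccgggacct

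AGGTCA, searched on both strands, was found in 4 of the 10 promoters, those of Cpt1a, Acadm, Echs1 and Acadvl, against 16.3% of the 32851 promoters of the same length. The first letter of the match lies at −94 from the start in Cpt1a, at −249 in Acadm, at −83 in Echs1 and at −87 in Acadvl. The Acadm match, at the edge of its window, is also the only one among the 10 that reads AAGGTCA, which 4.72% of all promoters hold. A full pair of AGGTCA in direct repeat spaced by 1 base, known as DR1, was in none of the 10 and in 0.0396% of all promoters. The cyclic AMP element TGACGTCA was in none, against 1.79% of all, and the shorter TGACG, which is part of it, in Etfdh and Acadm, against 20.8%. The E-box CACGTG was in none, against 7.15%. GGGCGG, the GC box, was in 8 of 10, all but Acadm and Acadvl, against 35.7%, and the NRF1 core motif in Etfdh only, against 0.971%. CCAAT was in Etfdh, Hadh and Cpt1a, against 37.4%. A match describes the letters in these windows and is no evidence of binding.

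All values below are log2 of the deposited intensity plus 12.1, after quantile normalization, and changes are log2 differences ± SE with 3 arrays per time point. A change was called when its adjusted p from limma, adjusted over all 7453 probe sets tested, was below 0.05. Probe sets with a mean under 6.77, the 40th percentile, were not tested. Since the experiment number paired the arrays, the fit with experiment as a block is given beside the members where it changes a call, and for the other lists as counts. The first principal component, with 28.7% of the variance, set experiment 1 apart from the other 2. Its 18 h and 30 h arrays had been doubted on clock genes in earlier work on these data, so the tests were also run without them.

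Of the 12 probe sets 9 passed that filter, for 8 genes. These 9 were above 6.77 on every array, with a lowest value of 7.28, so none passed through a high group alone. The 3 left out were both probe sets of Acadvl, the very-long-chain acyl-CoA dehydrogenase, and the dimmer one of Cpt2. The Acadvl probe set 161623_at ranged from 3.85 to 5.90 and 93334_at from 3.86 to 6.23, and Cpt2 161978_r_at from 3.75 to 5.06. In deposited units these 3 reached at most 51, 69.4 and 23.2, against an array median of at least 166.8. Detection calls were not used here, so these values cannot be told from background, and no statement on Acadvl is made.

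**Figure D1:**
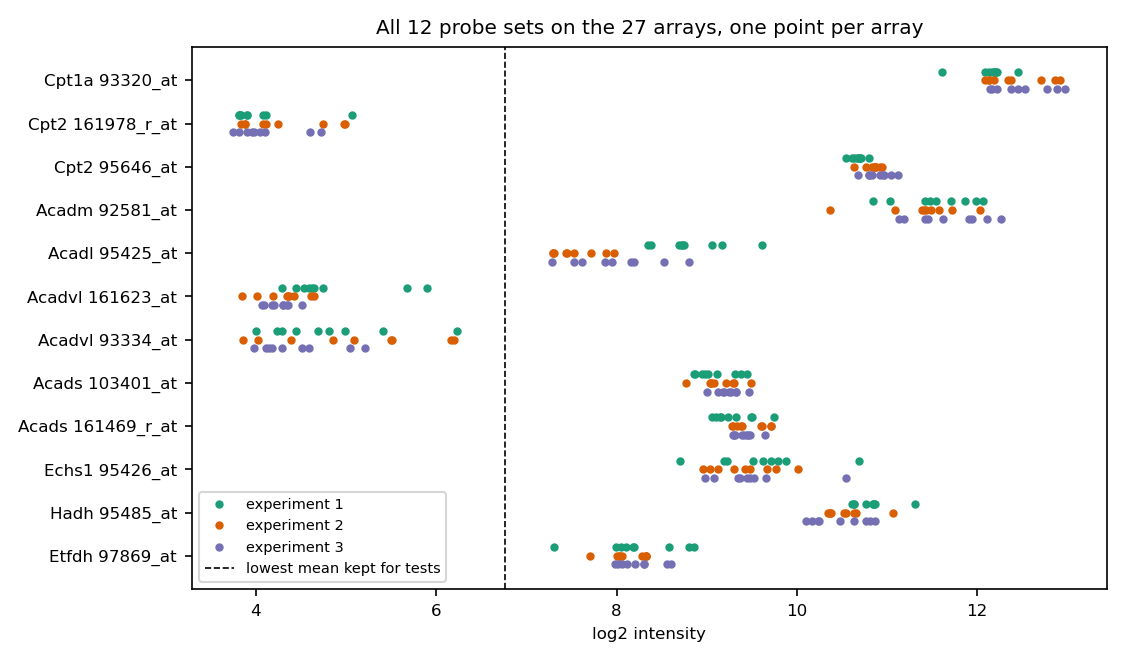
Each point is 1 of 27 arrays, the horizontal axis is the log2 intensity, the rows are the 12 probe sets and the colours the 3 experiments. The dashed line is the lowest mean kept for tests, 6.77. Both Acadvl probe sets and Cpt2 161978_r_at lie below it on every array, and Acadl separates experiment 1 from experiment 2.

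The label fibroblast was checked against markers. All 9 fibroblast markers on the array passed the filter, among them Col1a1, Col1a2 and Vim, where 7453 of all 12488 probe sets were kept. None of 5 hepatocyte markers did, and of 7 adipocyte markers 3 did, Lep, Cebpa and Lipe, while Adipoq, Pparg and Fabp4 did not. Of 8 striated muscle markers 3 did, Ckm, Myh7 and Tnnt3, and the summed intensity of the 8 was 392 to 635 at 6 h, against 484 to 548 at 0 h. The summed deposited intensity of the adipocyte markers was 1128 to 1525 at 6 h and 1083 to 1814 at 0 h. That of the fibroblast markers was 75271 to 80954 at 6 h, against 70614 to 76143 at 0 h. RNA quality was read from the 3′ to 5′ ratio of the actin control, which was 1.30 to 1.73 at 6 h and 1.35 to 1.70 at 0 h, so the ranges overlapped. The arrays measured bulk RNA, in which fewer cells expressing a gene and less of its RNA per cell cannot be told apart.

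Of the enzymes of the carnitine step, Cpt1a, which makes the acylcarnitine that enters the mitochondrion and is the main point of control of the pathway, read 12.45, 12.86 and 12.98 at 6 h, in experiments 1 to 3, against 11.61, 12.08 and 12.14 at 0 h. All 3 arrays at 6 h were above all 3 at 0 h, and the change within each experiment was 0.84, 0.78 and 0.84. Cpt1a rose by 0.82 ± 0.20, or 1.77-fold (adjusted p = 0.0120, and 0.000180 with the block). The 6 h call was lost without experiment 2 (adjusted p = 0.181, change 0.84), without experiment 3 (adjusted p = 0.181, change 0.81), and after median centring of the arrays (adjusted p = 0.0957, change 0.77).

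Over the course the means of Cpt1a were 11.94 at 0 h, 12.77 at 6 h and 12.63 at 12 h, followed by 12.46 at 18 h, 12.44 at 24 h and 12.34 at 30 h, then 12.19 at 36 h and 12.16 at 42 h, with 12.25 at 48 h. The level was thus highest at 6 h and came down slowly, without falling under that of 0 h. At 12 h it was still higher than at 0 h, by 0.69 ± 0.20 (adjusted p = 0.0310), although the arrays overlapped because experiment 1, at 12.09, lay near the 0 h values of the other 2. That call was lost on the deposited scale (adjusted p = 0.0597), after median centring (adjusted p = 0.170), and without experiment 2 (adjusted p = 0.323) or 3 (adjusted p = 0.272). The change was 0.49 ± 0.20 at 24 h (adjusted p = 0.154, and 0.0132 with the block) and 0.31 ± 0.20 at 48 h (adjusted p = 0.441). From 6 h on, Cpt1a fell along a line by 0.33 ± 0.09 per day (adjusted p = 0.0225), a call lost without experiment 2 (adjusted p = 0.362) or 3 (adjusted p = 0.306) and after median centring (adjusted p = 0.0570). The 3 experiments differed most early: at 12 h they spanned 12.09 to 12.92 and at 42 h only 12.13 to 12.19.

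Cpt2, which rebuilds acyl-CoA inside the mitochondrion, moved little in its bright probe set 95646_at. It read 10.80, 10.88 and 11.12 at 6 h, against 10.61, 10.63 and 10.80 at 0 h, so the 6 h arrays were just above those at 0 h. The change was 0.25 ± 0.13 (adjusted p = 0.340, and 0.0565 with the block), with a 95% interval of −0.02 to 0.53. Its time point means stayed between 10.68 at 0 h and 10.93 at 6 h, and no test of Cpt2 passed.

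Among the acyl-CoA dehydrogenases, Acadm, which takes medium-chain acyl-CoAs and is the enzyme lacking in MCAD deficiency, had the largest change. It read 12.06, 11.58 and 12.11 at 6 h, against 10.85, 10.36 and 11.14 at 0 h. Again no 6 h array fell within the 0 h range, and the change within each experiment was 1.21, 1.21 and 0.97. Acadm rose by 1.13 ± 0.21, or 2.19-fold (adjusted p = 0.00140), and kept this call in each of the alternative settings, with adjusted p from 0.000118 to 0.0358.

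Acadm stayed high for more than a day. Its means were 10.78 at 0 h, 11.92 at 6 h and 11.66 at 12 h, followed by 11.82 at 18 h, 11.89 at 24 h and 11.77 at 30 h, then 11.31 at 36 h and 11.30 at 42 h, with 11.37 at 48 h. The level held near its 6 h value up to 30 h and was lower, but above 0 h, from 36 h on. Against 0 h it was higher by 0.88 ± 0.21 at 12 h (adjusted p = 0.0109) and by 1.11 ± 0.21 at 24 h (adjusted p = 0.00178). The 12 h call was lost without any 1 experiment, at changes of 0.75 to 1.07, and the 24 h call without experiment 2, at 0.83 (adjusted p = 0.0833). At 48 h the change was 0.59 ± 0.21 (adjusted p = 0.101, and 0.0249 with the block), made up of 0.69, 1.03 and 0.05 in experiments 1 to 3.

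The later decline of Acadm was seen as a slope of −0.39 ± 0.09 per day from 6 h to 48 h (adjusted p = 0.0105), a call lost without experiment 2 (adjusted p = 0.0674) or 3 (adjusted p = 0.218). At 48 h it read 11.54, 11.39 and 11.19, against 11.71, 12.03 and 11.94 at 24 h. All 3 arrays at 48 h were below all 3 at 24 h, as in 4.63% of all probe sets. The difference of −0.52 ± 0.21 did not pass (adjusted p = 0.9996). Acadm also varied over the 9 time points as a whole (adjusted p = 0.00885), although not without experiment 1, 2 or 3 (adjusted p from 0.0776 to 0.273).

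Acadl, the long-chain acyl-CoA dehydrogenase, differed between experiments rather than over time. In experiment 1 its arrays ran from 8.35 to 9.61, in experiment 2 from 7.29 to 7.97 and in experiment 3 from 7.28 to 8.80. Every array of experiment 1 was above every array of experiment 2, which was true in either direction of 7.63% of the 7453 probe sets and of no other of the 9. The change at 6 h was 0.55, 0.23 and −0.60 in the 3 experiments, so there was no common direction, with a mean of 0.06 ± 0.56 and a 95% interval of −1.10 to 1.22. With the block its SE was 0.30, and no test passed.

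Acads, the short-chain enzyme, has a pair of probe sets that did not move together. In 103401_at it read 9.39, 9.49 and 9.33 at 6 h, against 8.87, 9.04 and 9.001 at 0 h, with no overlap. The change was 0.43 ± 0.15 (adjusted p = 0.110), and it passed with the block (adjusted p = 0.0344). In 161469_r_at it read 9.06, 9.39 and 9.46 at 6 h, against 9.23, 9.60 and 9.65 at 0 h. This probe set was lower in each experiment, by −0.17, −0.20 and −0.19, while its arrays overlapped, and the change of −0.19 ± 0.17 did not pass (adjusted p = 0.661). The r in its name marks probes chosen under relaxed rules. Across the 27 arrays, less the mean of each experiment, the pair correlated with r = −0.03, so the course of Acads remains uncertain.

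By their means, the hydratase stood out above 0 h at 6 h alone, and the hydroxyacyl-CoA dehydrogenase came down over the later time points. Whether their courses differ was not tested. Echs1, the short-chain enoyl-CoA hydratase of the matrix, read 10.69, 10.01 and 10.55 at 6 h, against 9.51, 9.77 and 9.52 at 0 h. The groups did not overlap, but experiment 2 changed by only 0.24, against 1.18 and 1.02 in experiments 1 and 3. Echs1 rose by 0.81 ± 0.24, or 1.76-fold (adjusted p = 0.0418, and 0.0141 with the block). That call was lost without experiment 1 (0.66, adjusted p = 0.149) or 3 (0.70, adjusted p = 0.478), and with no filter on low values (adjusted p = 0.0627).

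By 12 h Echs1 was back at 9.62, 9.67 and 9.66, close to the 0 h arrays, with a change from 0 h of 0.05 ± 0.24. Its means were 9.60 at 0 h, 10.41 at 6 h and 9.65 at 12 h, followed by 9.43 at 18 h, 9.43 at 24 h and 9.38 at 30 h, then 9.24 at 36 h and 9.09 at 42 h, with 9.29 at 48 h. Only the 6 h time point stood out above 0 h, and from 18 h on the mean was under that of 0 h. A comparison of 12 h with 6 h, added after the values were seen, gave −0.76 ± 0.24 (adjusted p = 0.609, and 0.120 with the block). The 12 h arrays were all below those at 6 h, as in 5.68% of all probe sets and, among the 9, also in Etfdh. At 48 h all 3 arrays, at 9.22, 9.30 and 9.35, were under all 3 at 0 h, as in 10.1% of all probe sets. The change of −0.31 ± 0.24 did not pass (adjusted p = 0.550).

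Echs1 varied over the 9 time points (adjusted p = 0.0192) and fell along a line by 0.50 ± 0.13 per day from 6 h to 48 h (adjusted p = 0.0170). A line is a coarse description here, since most of the fall lay between 6 h and 12 h. The call of variation was lost without any 1 experiment (adjusted p from 0.0633 to 0.774), and that of the slope without experiment 1 (−0.35, adjusted p = 0.175) or 3 (−0.48, adjusted p = 0.180).

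Hadh, which oxidises 3-hydroxyacyl-CoAs of short and medium length, read 11.31, 11.06 and 10.81 at 6 h, against 10.63, 10.52 and 10.23 at 0 h. The 6 h arrays were all above the 0 h arrays, and the change was 0.67, 0.54 and 0.57 in the 3 experiments. At 0.60 ± 0.19, or 1.51-fold, it missed the threshold without the block (adjusted p = 0.0732) and passed with it (adjusted p = 0.00318). It passed too on the deposited scale (adjusted p = 0.0460), after median centring (adjusted p = 0.0338) and with array weights (adjusted p = 0.0282).

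The means of Hadh were 10.46 at 0 h, 11.06 at 6 h and 10.79 at 12 h, followed by 10.65 at 18 h, 10.63 at 24 h and 10.56 at 30 h, then 10.55 at 36 h and 10.41 at 42 h, with 10.41 at 48 h. Hadh thus came back step by step to its 0 h level, and the change at 48 h was −0.06 ± 0.19, with a 95% interval of −0.46 to 0.35. From 6 h to 12 h Hadh changed by −0.45, −0.41 and 0.06 in experiments 1 to 3, and Echs1 by −1.07, −0.34 and −0.88. Hadh fell along a line by 0.30 ± 0.09 per day from 6 h to 48 h (adjusted p = 0.0444). This call was lost without experiment 2 (adjusted p = 0.185) or 3 (adjusted p = 0.290), with no filter on low values (adjusted p = 0.0619), with eBayes without the intensity trend (adjusted p = 0.0567), and without the 18 h and 30 h arrays of experiment 1 (adjusted p = 0.0635). Variation over the 9 time points passed only with the block (adjusted p = 0.0106, against 0.303 without it).

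Etfdh, the oxidoreductase that passes the electrons on to ubiquinone, read 8.86, 8.33 and 8.60 at 6 h, against 8.58, 8.33 and 8.12 at 0 h, and these groups overlapped. The change was 0.26 ± 0.23 (adjusted p = 0.659), with a 95% interval of −0.22 to 0.73. Its lowest array, at 7.31, was that of experiment 1 at 30 h, 1 of the 2 arrays doubted on clock genes. At 12 h Etfdh read 8.11, 8.29 and 8.30, all below the 6 h arrays, with a change from 6 h of −0.37 ± 0.23. No test of Etfdh passed.

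**Figure D2:**
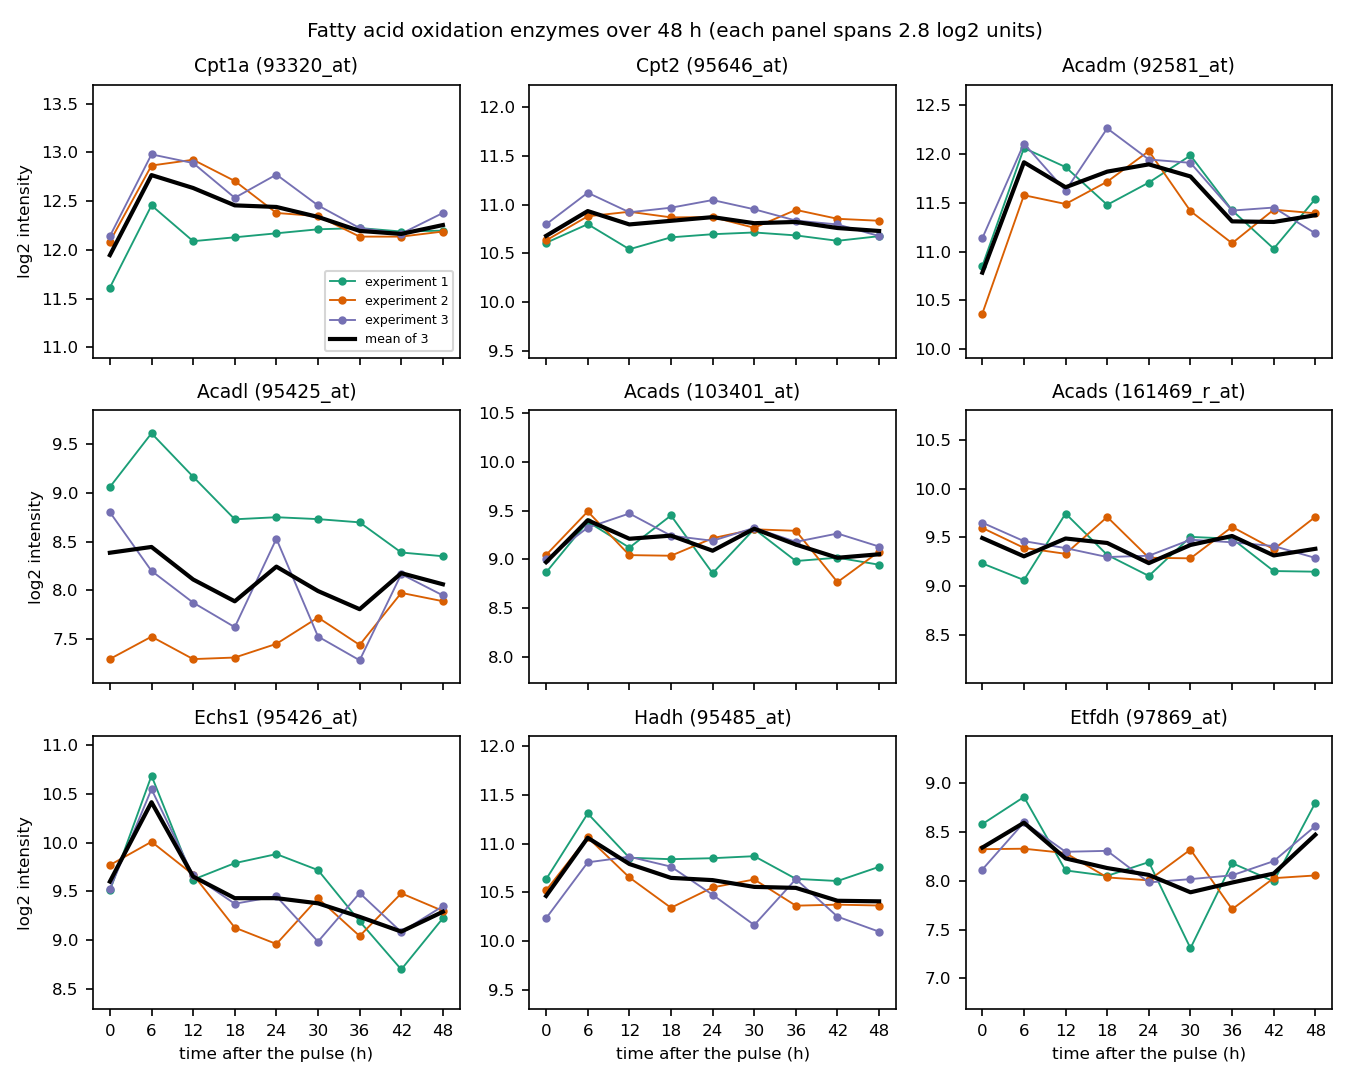
Log2 intensity of the 9 tested probe sets against hours after the pulse, 1 panel per probe set, with a thin line for each experiment and a thick line for the mean of 3 arrays. Cpt1a, Acadm, Echs1 and Hadh are higher at 6 h than at 0 h in all 3 experiments, and the 6 h value of Echs1 stands alone while Acadm stays high up to 30 h.

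Set side by side, 3 of the 9 probe sets were called higher at 6 h than at 0 h and 0 lower, where 3.7% of all 7453 were called higher and 2.39% lower. With the block 5 of 9 were called higher, against 9.97% of all. In 6 of 9 all arrays at 6 h were above all arrays at 0 h, against 12.4% of all probe sets, and 7 of 9 were higher in each of the 3 experiments, against 26.1%. The median change at 6 h was 0.43 over the 9, against 0.00 over all probe sets. The highest of the 9 time point means lay at 6 h in 8 of 9, all but Acads 161469_r_at, against 15% of all probe sets. These counts describe probe sets whose 6 h change was known when the genes were chosen, and Acads is counted through both of its probe sets.

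The number called fell with time. At 12 h 2 of 9 were higher than at 0 h, Cpt1a and Acadm, against 4.6% of all. At 24 h only Acadm was, against 4.08%, and with the block Cpt1a as well, against 10.6%. At 48 h 0 of 9 passed, against 4.67% of all higher and 3.23% lower, and with the block Acadm alone, against 10.7% higher. At an unadjusted p below 0.05, 1 of 9 passed at 48 h, against 19.6%. These comparisons share the 0 h arrays, so a low 0 h array moves all of them.

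**Figure D3:**
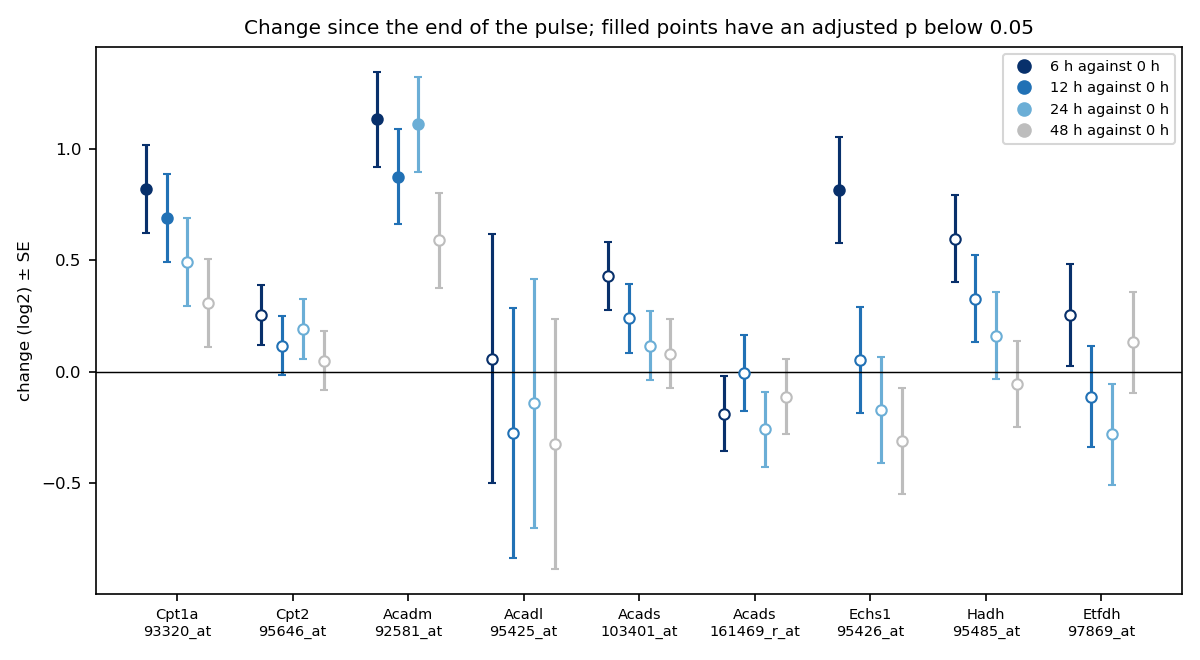
Change on the log2 scale at 4 later time points against 0 h, with bars of 1 SE, for the 9 tested probe sets from left to right. Filled points have an adjusted p below 0.05: Cpt1a, Acadm and Echs1 at 6 h, Cpt1a and Acadm at 12 h, and Acadm at 24 h.

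Over the 9 time points 2 of 9 probe sets varied, Acadm and Echs1, against 7.3% of all. With the block Cpt1a and Hadh varied too, which made 4 of 9, against 26.4%. From 6 h to 48 h, 4 of 9 fell along a line, Cpt1a, Acadm, Echs1 and Hadh, against 3.3% of all, and 0 rose, against 2.83%. With the block the same 4 fell, against 9.02% of all. The slopes of the other 5 lay between −0.17 ± 0.24 per day, in Acadl, and 0.05 ± 0.08, in Acads 161469_r_at. The slope is measured from 6 h, the highest time point of these genes, and so is not independent of the rise before it.

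Neither a daily rhythm nor a difference over a day was called. For the 24 h rhythm, 0 of 9 passed in limma, as did 0% of all, and at an unadjusted p below 0.05 there were 0 of 9, against 3.33%. With the block 0 of 9 passed, and 1 of 9 was at that level, Acadm, against 10.5%. The amplitude was largest in Echs1, at 0.21 ± 0.10, and Acadm, at 0.18 ± 0.07, and smallest in Cpt2, at 0.02 ± 0.05, the value after ± being the SE of the cosine term. At 48 h against 24 h 0 of 9 passed, against 0.0268% of all, with Acadm at an unadjusted p below 0.05, against 4.52%. At 12 h against 6 h 0 of 9 passed, against 0.0134% of all, with Echs1 at an unadjusted p below 0.05, against 5.18%.

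Across the 27 arrays, less the mean of each experiment, Echs1 and Hadh had the highest correlation among the tested members, at r = 0.72. Acadm correlated with Cpt2 at r = 0.67 and with Cpt1a at r = 0.60, but with Echs1 only at r = 0.24. The 9 arrays of an experiment share that experiment, and values on 1 array share its hybridization, so these correlations are a description. Among the 7453 probe sets other than the members, those most like Cpt1a by the same measure were 98472_at, which has no symbol in the annotation, Zfp524, 1810030O07Rik, the interferon-induced GTPase gene Gbp2 and Emp3, with r from 0.90 to 0.92. Those most like Acadm were the quinone reductase gene Cryz at r = 0.85, Nit1, Ankrd46, Mtif2, an initiation factor of mitochondrial translation, and Surf1, an assembly factor of cytochrome c oxidase, with r down to 0.80.

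Genes of the neighbouring steps were taken from lists chosen with earlier results known, each gene through its brightest probe set. For Acads this was 161469_r_at. Of 11 other tested genes of mitochondrial β-oxidation and electron transfer, 2 rose at 6 h and 0 fell, also with the block. Of all probe sets 3.7% were called higher and 2.39% lower then, and 9.97% and 6.74% with the block. Acaa2, a mitochondrial thiolase, rose by 0.70 ± 0.12 (adjusted p = 0.000658) and Crat, carnitine acetyltransferase, by 0.62 ± 0.19 (adjusted p = 0.0494). Slc25a20, the carrier of acylcarnitines, had 0.48 ± 0.20 and Hadhb, the partner of Hadha in the trifunctional protein, −0.05 ± 0.12, and neither passed. The list had a median change of 0.17, against 0.00 over all probe sets. Acaa2 was also higher at 12 h, by 0.56 ± 0.12 (adjusted p = 0.00495), and fell along a line by 0.25 ± 0.06 per day from 6 h on (adjusted p = 0.0122). It was the only gene of the list called at 12 h, and with the block Crat (adjusted p = 0.0402) and the enoyl-CoA isomerase gene Eci2 (adjusted p = 0.0196) rose as well. At 12 h 4.6% of all probe sets were called higher, and 10.9% with the block. With the block Slc25a20 (adjusted p = 0.0237) and Eci1 (adjusted p = 0.0290) also fell along a line, which made 3 of the 11, against 9.02% of all probe sets.

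The electron transfer flavoprotein itself gave no call, with Etfa at 0.03 ± 0.24 and Etfb at −0.11 ± 0.27. Of 9 genes of peroxisomal β-oxidation, 0 passed in any comparison with 0 h, also with the block. Of all probe sets 6.09% to 8.33% were called in these comparisons in either direction, and 16.7% to 20.4% with the block. At 6 h their median was 0.19, and Abcd3, a peroxisomal acyl-CoA transporter, had the smallest p at 0.40 ± 0.16 (adjusted p = 0.186). Of 10 genes of branched-chain and amino acid acyl-CoA breakdown 1 rose at 6 h, Bckdha, a subunit of the branched-chain ketoacid dehydrogenase, by 0.53 ± 0.14 (adjusted p = 0.0260), and 0 fell. Of all probe sets 3.7% were called higher then, and 9.97% with the block. With the block 2 of the 10 rose, the other being Hibadh of valine breakdown, at 0.63 ± 0.21 (adjusted p = 0.0779, and 0.00291 with the block). From 6 h on 2 of the 10 fell along a line, Bckdha and Oxct1, against 3.3% of all probe sets. With the block 6 of the 10 fell, against 9.02%. Oxct1, which activates ketone bodies, was lower at 24 h by −0.57 ± 0.16 (adjusted p = 0.0253) and at 48 h by −0.76 ± 0.16 (adjusted p = 0.00281).

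Of 21 genes of the TCA cycle and pyruvate dehydrogenase, which use and feed the same acetyl-CoA pool, 0 passed at 6 h, with a median of −0.03. Of all probe sets 3.7% were called higher then and 2.39% lower. With the block 2 of the 21 rose, Idh3g and Pdk1, against 9.97% of all probe sets. Pdk3 alone fell, 1 of the 21, against 6.74%. Sdha, a subunit of succinate dehydrogenase, fell along a line by 0.51 ± 0.09 per day (adjusted p = 0.00176), and Idh3g and Suclg2 by 0.28 ± 0.07 and 0.29 ± 0.08. These were 3 of the 21, against 3.3% of all probe sets. Against 0 h, 1 of the 21 was lower at 12 h, against 3.73% of all. With the block 7 were lower then, against 9.5%, and 0 were higher. At 24 h 1 was higher and 1 lower, against 4.08% and 2.84%. With the block 1 was higher and 4 lower then, against 10.6% and 7.96%. At 48 h 2 were lower, against 3.23%. With the block 2 were higher and 4 lower then, against 10.7% and 9.07%. The median at 48 h was −0.24. In fatty acid uptake and activation a gene fell. Acsl4, an acyl-CoA synthetase that prefers arachidonic acid, fell by 1.55 ± 0.26 at 6 h (adjusted p = 0.000493). It was the only 1 of the 8 genes tested that was called then without the block, against 2.39% of all probe sets lower and 3.7% higher. With the block 1 rose and 2 fell, where 9.97% of all probe sets were called higher and 6.74% lower. The additions were the fatty acid transporter gene Slc27a1, at 1.52 ± 0.72 (adjusted p = 0.271, blocked 0.0308), and Lpl, lipoprotein lipase, at −0.84 ± 0.62 (adjusted p = 0.566, and 0.00639 with the block). Acsl4 stayed lower than at 0 h, with −1.88 ± 0.26 at 12 h (adjusted p = 4.63e-05) and −1.82 ± 0.26 at 24 h (adjusted p = 6.81e-05). At 48 h it had −1.75 ± 0.26 (adjusted p = 0.000101). Acsl5 was lower too, at 24 h by −0.99 ± 0.23 (adjusted p = 0.00938) and at 48 h by −0.86 ± 0.23 (adjusted p = 0.0214). Of the 8 genes 1 was thus lower at 12 h, against 3.73% of all, and 2 at 24 h and at 48 h, against 2.84% and 3.23%. With the block 4 were lower at 12 h, with Dbi, Acsl5 and Lpl added, against 9.5%. At 24 h 3 were, with Dbi added, against 7.96%, and at 48 h 2, against 9.07%. At these later time points 0 were called higher.

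Fatty acid synthesis had 10 tested genes, of which 1 fell at 6 h, the elongase gene Elovl5, by 0.55 ± 0.14 (adjusted p = 0.0191), and 0 rose. Of all probe sets 2.39% were called lower then, and 6.74% with the block. With the block 2 of the 10 fell at 6 h, Elovl5 and Fasn. The desaturase gene Scd2 rose with the block (adjusted p = 0.00487), 1 of the 10, against 9.97% of all. At 12 h 3 fell, against 3.73% of all probe sets: Elovl5, Fasn, the fatty acid synthase, by 1.04 ± 0.21 (adjusted p = 0.00307), and Scd1, a desaturase, by 1.15 ± 0.33 (adjusted p = 0.0314). With the block 5 fell at 12 h, against 9.5% of all, and 1 rose, against 10.9%. At 24 h 0 fell in limma without the block, against 2.84% of all. At an unadjusted p below 0.05, 3 were lower then, against 18.4% of all probe sets in either direction. With the block 5 fell at 24 h, against 7.96%. In the list of PPAR receptors and other targets 2 of 8 tested genes rose at 6 h, against 3.7% of all probe sets. These were the lipase inhibitor Angptl4, by 1.60 ± 0.25, and Plin2, a lipid droplet coat protein, by 1.25 ± 0.18. Both stayed higher at 24 h, and Angptl4 reached 2.25 ± 0.25 at 48 h (adjusted p = 2.42e-06), where none of the 9 member probe sets passed. Without the block no other tested gene of this list was called at 6 h, among them the receptor Ppara, at 0.05 ± 0.36. With the block 2 of the 8 rose at 6 h and 0 fell, against 9.97% and 6.74% of all probe sets.

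**Figure D4:**
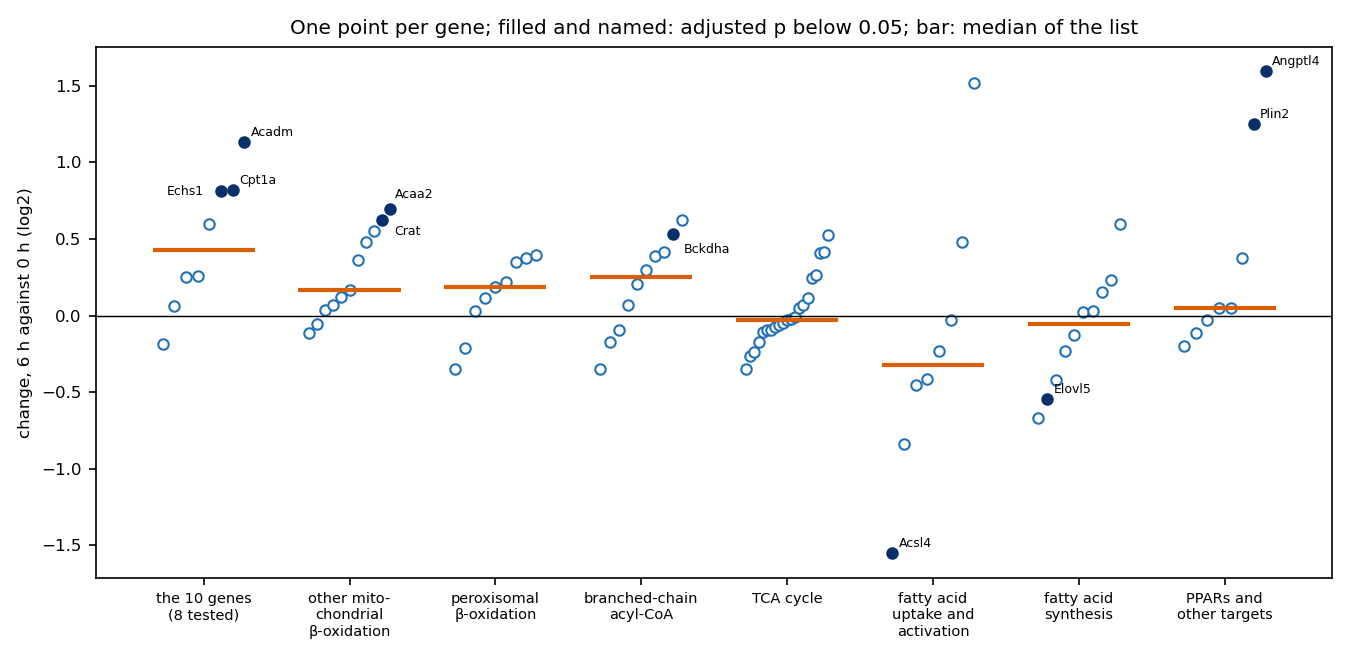
Change at 6 h against 0 h on the log2 scale, 1 point per gene, for the member genes and 7 lists of neighbouring pathways. Filled points, with names, have an adjusted p below 0.05, and the bars are medians, which run from −0.32 in uptake and activation to 0.43 in the member genes.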

How the data were processed

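Total RNA of NIH/3T3 cells was hybridised to Affymetrix mouse U74v2 arrays, with cells harvested from individual flasks, per the labels' protocols. The authors deposited linear probe set intensities. The sources used here do not give their algorithm. The mean without the outer 2% of values at each end was 500.28 to 500.35 on every array, so the deposited values carry a common scaling. The array medians ran from 166.8 to 200.7, and no 2 arrays were identical. The number of arrays limits the precision, and detection calls were not used.

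From these values log2(intensity + 12.1) was computed, the pseudocount being their 10th percentile. Such changes understate those of dim probe sets. Array medians spread over 0.25, above a limit of 0.2, so values were quantile normalized. Left out were 66 controls and the probe sets whose mean lay under the 40th percentile, which kept 7453 of 12488. Of all probe sets 10855 have 1 symbol, 396 have several and were not named, and 1193 that are no controls are not listed in the platform annotation.

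Tests were run in R 4.3.3 with limma 3.58.1. Its eBayes step used an intensity trend, and p-values were adjusted by Benjamini-Hochberg over all probe sets kept. All 27 arrays shared a fit of 9 time means. The slope and the 24 h rhythm came from the 24 arrays from 6 h on, with a linear term beside cosine and sine terms. Named were all members, up to 4 called genes of each other list with the largest change, or that with the smallest p, and the 5 probe sets most like Cpt1a and Acadm. Other genes are named as examples and were chosen after their values were seen. The code was tested on simulated data. Members and lists were chosen with earlier results of these data known. Promoters were read from the RefSeq table of GRCm38.p6, where all 10 genes had 1.

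The experiment numbers come from the titles. After subtraction of the time point means, any 2 arrays of an experiment correlated above 0.1 over the probe sets. The lowest r was 0.426 for experiment 1, 0.349 for experiment 2 and 0.135 for experiment 3, so the numbers paired the samples. Alternatives changed the scaling, pseudocount, filter, variance model, array weights, block, experiments, arrays, period and trend terms.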

Additional observations from a re-analysis of the deposited data

How the results depend on the processing

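The counts below are of the 9 tested member probe sets. With the experiment as a replicate block, 5 were called at 6 h against 0 h, against 3 without it, 2 at 24 h against 1, 1 at 48 h against 0, and 4 varied over time against 2. The block changed no other count of members, though all probe sets called at 6 h numbered 1245 with it and 454 without. The share of all probe sets called went from 6.09% to 16.7% at 6 h and from 6.92% to 18.6% at 24 h. It went from 7.9% to 19.8% at 48 h and from 7.3% to 26.4% for variation over time. On the deposited scale, and after median centring of the arrays, 1 was called at 12 h in place of 2. Of all probe sets 8.25% and 6.92% were called there, in place of 8.33%. The deposited scale also gave 4 at 6 h in place of 3, with 6.4% of all probe sets in place of 6.09%. Median centring gave 3 for the slope in place of 4, with 5.41% of all in place of 6.13%. Array weights gave 4 at 6 h and 3 for variation over time, while 10.8% and 15.2% of all probe sets were called. Without the filter, where 12 member probe sets were tested, 2 were called at 6 h and 3 for the slope, against 3.13% and 3.15% of all. The slope count was 3 too with eBayes without the intensity trend, against 5.74% of all. It was also 3 without the 18 h and 30 h arrays of experiment 1, against 6.32% of all. Without 1 experiment at a time the counts ranged from 1 to 2 at 6 h, 0 to 1 at 12 h, 0 to 1 at 24 h, 0 to 1 for variation over time and 0 to 3 for the slope. Fewer arrays enter these fits. In them the share of all probe sets called ranged from 1.49% to 4.76% at 6 h, 2.11% to 7.11% at 12 h and 1.72% to 5.69% at 24 h. It ranged from 0.416% to 6.82% for variation over time and from 0.496% to 9.96% for the slope. Of the 12 called member values, 0 changed sign under any alternative, and in 160 repeats 128 kept their call and 32 lost it. The sign of uncalled values turned in 19 repeats, of 14 values. With array weights, Acadl at 6 h against 0 h was −0.13, Etfdh at 12 h against 0 h 0.011 and Echs1 at 48 h against 24 h 0.016. The others turned on leaving out an experiment. There Acadl ranged from −0.14 to 0.39 at 6 h and −0.45 to 0.052 at 12 h against 0 h, −0.49 to 0.019 at 48 h against 24 h, and −0.41 to 0.0084 in slope. Etfdh ranged from −0.26 to 0.086 at 12 h and −0.028 to 0.33 at 48 h, and Cpt2 from −0.024 to 0.13 at 48 h. Echs1 ranged from −0.41 to 0.15 at 24 h against 0 h and −0.38 to 0.12 at 48 h against 24 h. Acads 103401_at ranged from −0.11 to 0.014 at 48 h against 24 h, and 161469_r_at from −0.26 to 0.12 at 12 h and −0.22 to 0.015 at 48 h against 0 h. In the comparison of 12 h with 6 h, added after the data were seen, Cpt1a ranged from −0.23 to 0.029 and Acads 161469_r_at from −0.091 to 0.31. The cause was not tested. The rhythm and the comparisons of 48 h with 24 h and of 12 h with 6 h had 0 calls among the members in every setting run. No detection calls were used, so how far signal over background limits the dimmer probe sets is not known.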
